A study of Homo sapiens with 16 samples.

Results

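The 10 genes described here encode CASP1, the inflammatory caspase named in the study's labels, and proteins that work with it in inflammasomes and in pyroptosis. They were chosen by name: CASP1, CASP4, CASP5, CARD16, PYCARD, NLRP3, IL1B, IL18, GSDMD and GSDME. All 10 were measured, by 30 of the 49395 probe sets, among 18132 genes tested. The brightest probe set of a gene over all arrays stood for it, and the others are described beside it.

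RNA was measured on 16 Affymetrix PrimeView arrays of Nalm6, a human cell line grown from a leukaemia of B-cell precursors, with 4 arrays in each of 4 groups. The groups were cells labelled CASP1 (genotype given as active, overexpressed CASP1) treated with prednisolone, the same cells untreated, control cells treated with prednisolone, and control cells untreated. Prednisolone, a synthetic glucocorticoid, was given for 24 hours per the labels' protocol, while the sample labels spell the treatment as a form of prednisone. The dose, the construct, its promoter and whether each line is a single clone could not be read from the labels. The series title concerns the NLRP3 inflammasome, under its older name NALP3, and cutting of the glucocorticoid receptor by CASP1 in glucocorticoid-resistant leukaemia.

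An inflammasome is a protein platform. A sensor such as NLRP3 recruits the adaptor ASC, encoded by PYCARD, which gathers procaspase 1 so that it cuts and activates itself. Active caspase 1 matures interleukin 1 beta and interleukin 18 and cuts gasdermin D, whose released fragment makes pores in the cell membrane and causes the lytic death called pyroptosis. Caspases 4 and 5 cut gasdermin D after sensing bacterial lipopolysaccharide, and caspase 3 can free the pore-forming part of gasdermin E. The system is best known from monocytes and macrophages, and glucocorticoids are known to repress the interleukin 1 beta gene in such cells.

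The deposited signals are on a log2 scale, so a difference of 1 is a 2-fold change. Every group's replicate 1 differed from its fellows: the correlation with them across genes was 0.9853 to 0.994, against 0.9956 to 0.9978 among replicates 2 to 4, and results that rest on it are given with and without it. Of 13 B-cell precursor markers 12 were measured, with mean signals from 6.69 for CD79A to 12.75 for VPREB1. The 12 monocyte and macrophage markers averaged 2.61 to 4.38, and CD14 lay between 2.90 and 3.07 in the group means. As an estimate of background, 16 genes of other tissues had a median signal of 3.53 and ranged from 2.51 to 7.01. Separate cultures are not named in the labels, and the p-values then speak only of the spread among these arrays, which may be technical. In these bulk samples a change in the number of cells that express a gene and a change in RNA per cell cannot be told apart.

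CASP1, which gives the labels their name, was lower on every array labelled CASP1 than on every control array. Its signal was 5.38, 4.79, 4.87 and 5.05 in treated cells labelled CASP1, against 6.90, 7.08, 6.97 and 6.86 in treated control cells. In untreated cells it was 6.05, 5.45, 5.62 and 5.64 on arrays labelled CASP1 and 7.69, 7.95, 7.60 and 7.76 on control arrays. The labels therefore go against this signal, and every direction between the lines given here follows the labels. The difference was -2.06 in untreated cells (SE 0.13, adjusted p = 2.33e-08) and -1.93 in treated cells (SE 0.13, adjusted p = 5.07e-08). No source used here places the probes on the introduced construct, and RNA of a construct without their targets would not be seen. In that case the signal read here would be that of the cells' own CASP1 gene, lower in cells labelled CASP1. Exchanged labels and this second case were not tested and cannot be told apart in these files. With exchanged labels every line difference and interaction given here would have the opposite sign.

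The 9 CASP1 probe sets ran from bright to dim without a clear break. In untreated cells 7 of the 9 were lower in cells labelled CASP1, by -2.19 to -1.70, and the same number were lower in treated cells, by -1.98 to -0.99, with p-values adjusted over all probe sets. The mean of all 9 differed by -1.22 in treated and -1.51 in untreated cells. The pair not called in either comparison had no group mean above 2.75, below the median of the tissue-restricted genes in all 4 groups. Among the 7, 3 also had a mean below that median in treated cells labelled CASP1 (3.28, 3.22 and 2.94), and the last of these had 3.01 in untreated cells labelled CASP1, which limits how closely their differences can be read.

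**Figure D1:**
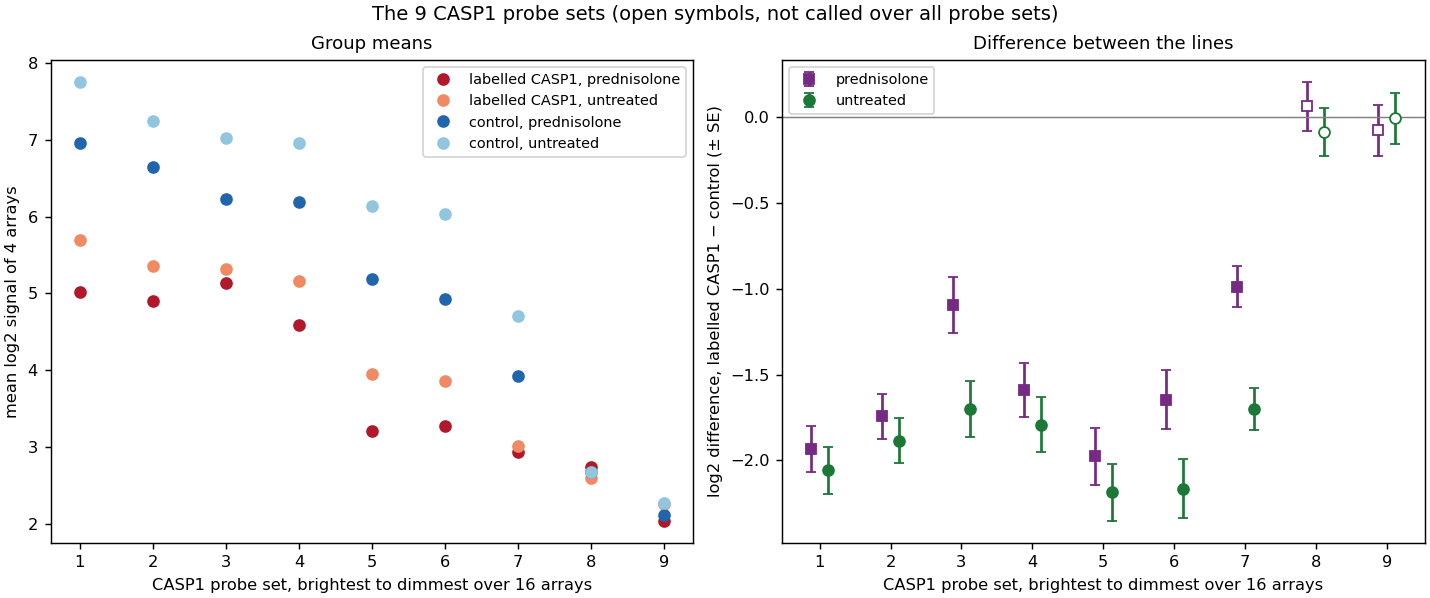
Left, mean log2 signal of 4 arrays for each CASP1 probe set in the 4 groups, ordered from the brightest to the dimmest. Right, the log2 difference of cells labelled CASP1 minus control cells with its SE, for treated (squares) and untreated (circles) cells. Filled symbols passed adjusted p under 0.05 over all probe sets, which were 7 of 9 in each condition.

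With prednisolone CASP1 fell in both lines, and its groups did not overlap. The change was -0.67 in cells labelled CASP1 (SE 0.13, adjusted p = 0.00451) and -0.79 in control cells (SE 0.13, adjusted p = 0.000374). Leaving out all replicate 1 arrays gave changes of -0.67 and -0.80, and within replicate 1 they were -0.67 and -0.79. In control cells 7 of the 9 probe sets fell, by -1.10 to -0.60. In cells labelled CASP1 4 fell, by -0.74 to -0.46, and 5 did not pass, and the mean of all 9 changed by -0.37. The difference between the responses of the lines was 0.12, with a 95% interval from -0.28 to 0.52.

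**Figure D2:**
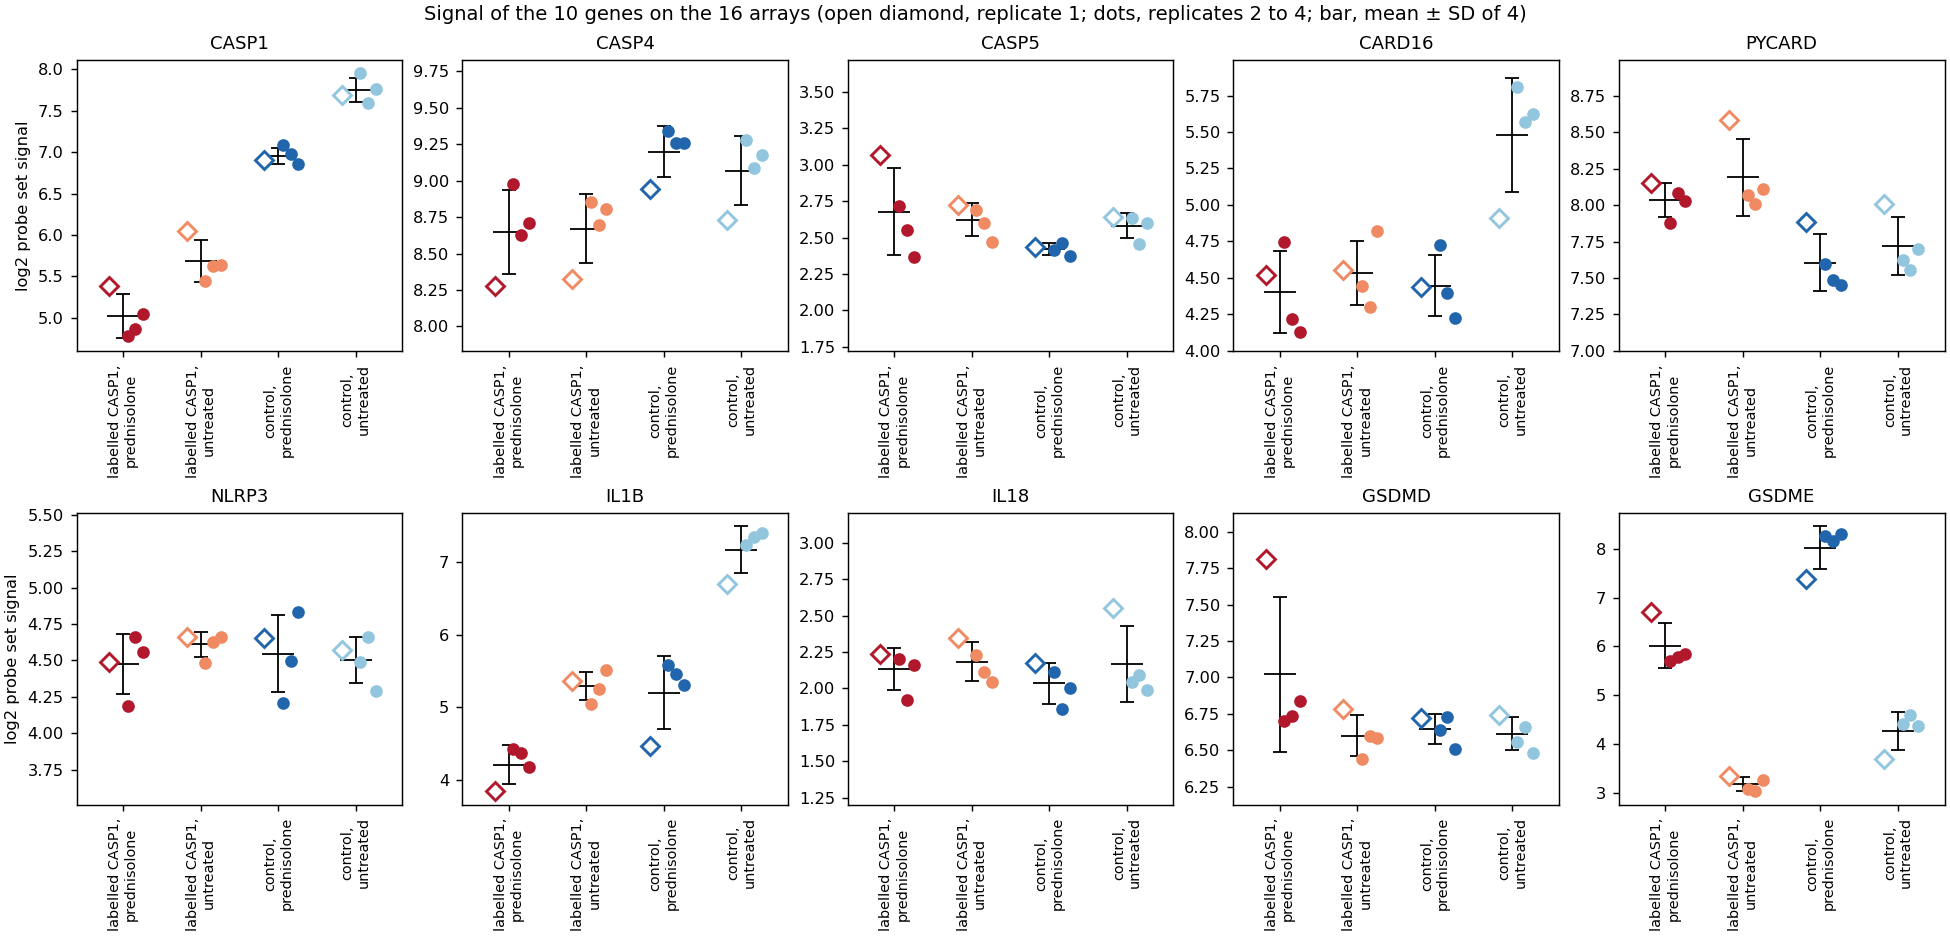
Log2 signal of the brightest probe set of each of the 10 genes on each array, with the mean and SD of the 4 arrays as a black bar. Open diamonds are replicate 1 and dots are replicates 2 to 4. CASP1 separates the lines, GSDME and IL1B separate treated from untreated cells of each line, and NLRP3, IL18 and CASP5 overlap in most groups.

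Of the 10 genes, 3 were called with prednisolone in cells labelled CASP1, where 6.34% of all genes were, and 4 in control cells, where 14.2% were. In cells labelled CASP1 1 rose and 2 fell, beside 2.99% and 3.35% of all genes, and in control cells 1 rose and 3 fell, beside 5.73% and 8.43%. Between the lines 5 were called in treated cells, against 16.4% of all genes, and 5 in untreated cells, against 14.1%. In treated cells 1 was higher and 4 were lower in cells labelled CASP1, beside 7.88% and 8.52% of all genes, and in untreated cells 1 was higher and 4 were lower, beside 5.87% and 8.2%. Groups did not overlap for 3 genes with prednisolone in cells labelled CASP1 and 4 in control cells, beside 11.9% and 20.9% of all genes, and for 3 between the treated and 5 between the untreated lines, beside 19.7% and 21.7%. The median change of the 10 genes with prednisolone was -0.09 in cells labelled CASP1 and -0.12 in control cells, beside medians over all genes of 0.018 and -0.015. Called means an adjusted p under 0.05 in limma, with adjustment over all 18132 genes.

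**Figure D3:**
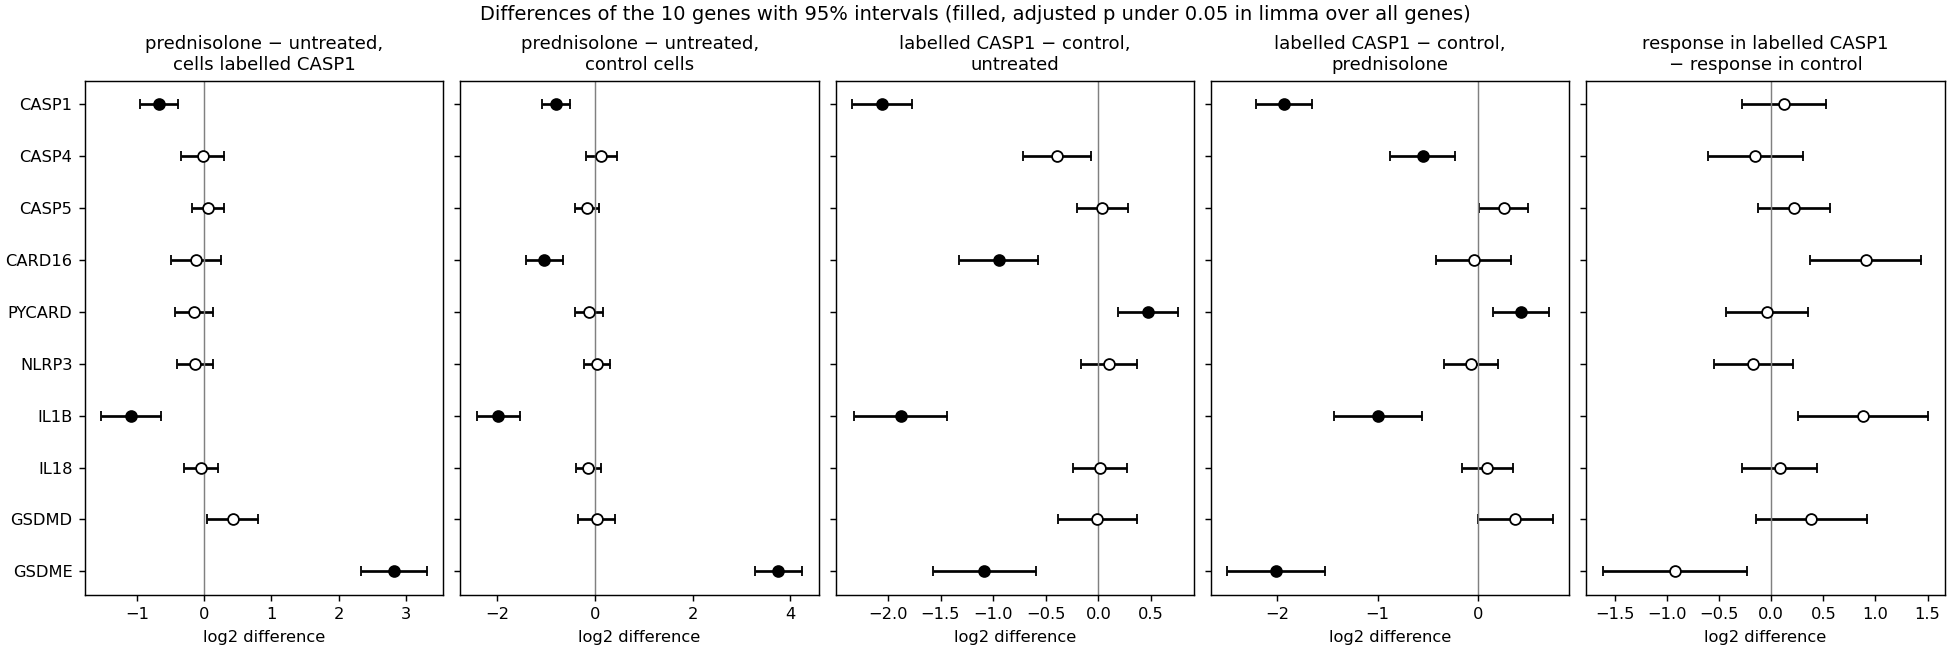
Log2 differences of the 10 genes in the 5 comparisons, each with its 95% interval from limma. Filled points had adjusted p under 0.05 over all genes. GSDME has the largest rises (2.83 and 3.75) and IL1B the largest falls with prednisolone (-1.09 and -1.97), and no point is filled in the last panel.

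NLRP3, the sensor of the series title, did not pass in any comparison. Its 16 signals ran from 4.19 to 4.83, and the group means were 4.48 ± 0.20 and 4.61 ± 0.085 in treated and untreated cells labelled CASP1 and 4.55 ± 0.26 and 4.51 ± 0.16 in treated and untreated control cells (SD, n = 4 each). The 4 groups overlapped. Its prednisolone change was -0.13 in cells labelled CASP1 (95% interval -0.40 to 0.13) and 0.040 in control cells (-0.23 to 0.31), and the line difference in untreated cells was 0.10 (-0.16 to 0.37). Its second probe set was not called either. The group means of both lay above the 3.53 median of the tissue-restricted genes but within their range of 2.51 to 7.01.

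PYCARD, the adaptor, was a little higher in cells labelled CASP1, and did not pass with prednisolone in either line. Treated cells labelled CASP1 had 8.15, 7.88, 8.08 and 8.03, against 7.89, 7.60, 7.48 and 7.45 in treated control cells. Untreated cells labelled CASP1 had 8.58, 8.07, 8.01 and 8.11, against 8.01, 7.62, 7.55 and 7.70 in untreated control cells. The treated groups overlap through control replicate 1, and the untreated groups meet at 8.01. The differences were 0.43 in treated cells (adjusted p = 0.0335) and 0.47 in untreated cells (adjusted p = 0.0229), and both PYCARD probe sets were called higher in each. The treated call ended without replicate 1, 3 or 4 of the cells labelled CASP1 (0.39, 0.42 and 0.43) or replicate 2, 3 or 4 of the control cells (0.43, 0.39 and 0.38). The untreated call ended without replicate 1 of the cells labelled CASP1 (0.34) or replicate 2, 3 or 4 of the control cells (0.44, 0.42 and 0.47). Without all 4 arrays of replicate 1 both calls stood, at 0.49 (adjusted p = 0.000431) and 0.44 (adjusted p = 0.000937).

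CASP4, CASP5, CASP1 and CARD16 neighbour each other in this order on chromosome 11 in the RefSeq annotation. CASP4, a receptor for intracellular lipopolysaccharide, did not pass with prednisolone, at -0.024 in cells labelled CASP1 (95% interval -0.35 to 0.30) and 0.13 in control cells (-0.19 to 0.45). Treated cells labelled CASP1 had 8.28, 8.98, 8.63 and 8.71, against 8.94, 9.34, 9.26 and 9.26 in treated control cells. The groups overlap by 1 array on each side, replicate 2 of the cells labelled CASP1 and replicate 1 of the control cells. The difference was -0.55 (SE 0.15, adjusted p = 0.0184), and it no longer passed when treated replicate 1 of the CASP1-labelled line was left out (-0.43, adjusted p = 0.0583) or treated control replicate 2 was (-0.50, adjusted p = 0.0608). In untreated cells it was -0.40 (adjusted p = 0.102), while the fit with the replicate number as a block gave adjusted p = 0.00121. Of the untreated arrays sharing a number, only those of replicate 1 were each closest to the other. Leaving out all replicate 1 arrays gave an untreated value of -0.39 (adjusted p = 0.00722), and without untreated control replicate 1 alone -0.51 (adjusted p = 0.0359). All 7 CASP4 probe sets had a log2 difference below 0 in both line comparisons, and 5 were called in treated and 2 in untreated cells.

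CASP5, a close relative of CASP4, had signals of 2.37 to 3.07 on the 16 arrays, below the median of the tissue-restricted genes. None of its 3 probe sets was called in any comparison. The largest difference was 0.26 in treated cells labelled CASP1 (adjusted p = 0.152), and it passed only without replicate 4 of that group (0.36, adjusted p = 0.0367).

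CARD16, which holds a caspase recruitment domain much like that of CASP1 and no protease, was high in untreated control cells only. Treated cells labelled CASP1 had 4.52, 4.74, 4.22 and 4.13, and untreated cells labelled CASP1 had 4.55, 4.44, 4.30 and 4.82. Treated control cells had 4.43, 4.73, 4.40 and 4.22, and untreated control cells had 4.91, 5.81, 5.57 and 5.62. The last group does not overlap the others, and its replicate 1 is its lowest array. CARD16 fell by 1.03 with prednisolone in control cells (SE 0.18, adjusted p = 0.000443), while the change in cells labelled CASP1 was -0.13 (adjusted p = 0.797). It was lower in cells labelled CASP1 by -0.95 in untreated cells (adjusted p = 0.00134), and the difference in treated cells was -0.043 (adjusted p = 0.912). Without the 4 arrays of replicate 1 CARD16 changed by -1.22 with prednisolone in control cells and differed by -1.14 between the untreated lines. Within replicate 1 alone the CARD16 values were -0.48 and -0.36. Its second probe set stayed between 2.52 and 2.67 in the group means and was not called, and the mean of both gave -0.55 for prednisolone in control cells and -0.49 for the lines in untreated cells. CARD16 and CASP1 share near-identical sequence, so signal from the other gene's RNA on these probes was not tested.

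IL1B, which encodes the interleukin 1 beta precursor, fell with prednisolone in both lines and was lower in cells labelled CASP1. Treated cells labelled CASP1 had 3.84, 4.43, 4.38 and 4.18, and the same cells untreated had 5.37, 5.05, 5.26 and 5.52. Treated control cells had 4.47, 5.58, 5.46 and 5.30, and untreated control cells had 7.24, 7.35 and 7.41 on replicates 2 to 4 and 6.71 on replicate 1. Untreated control cells stand above every other array, and treated cells labelled CASP1 stand below every other array. The fall was -1.09 in cells labelled CASP1 (SE 0.21, 2.13-fold, adjusted p = 0.00311) and -1.97 in control cells (SE 0.21, 3.92-fold, adjusted p = 2.4e-06). Cells labelled CASP1 were lower by -0.995 with prednisolone (adjusted p = 0.00299) and by -1.88 without it (adjusted p = 9.89e-06). All 4 calls were kept under every alternative tried. IL1B had a single probe set.

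IL18, the other cytokine matured by caspase 1, had signals of 1.86 to 2.55 on the 16 arrays and was not called in any comparison. Like CASP5, it lay under the median of the tissue-restricted genes on every array. The prednisolone change was -0.053 in cells labelled CASP1 (95% interval -0.31 to 0.20) and -0.13 in control cells (-0.39 to 0.12).

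GSDMD, the gasdermin cut by caspases 1, 4 and 5, did not pass in any comparison. Its 16 signals ran from 6.44 to 7.81, and the highest was replicate 1 of treated cells labelled CASP1, where the other 3 arrays had 6.70 to 6.84. The prednisolone change in cells labelled CASP1 was 0.42 (adjusted p = 0.213) with that array and 0.22 (adjusted p = 0.12) without the 4 arrays of replicate 1. In control cells it was 0.035 (95% interval -0.34 to 0.41). The second GSDMD probe set was not called either. With prednisolone it changed by -0.028 in cells labelled CASP1 and by -0.37 in control cells (limma, adjusted p = 0.0544 over all probe sets). Both are opposite in sign to the brightest probe set.

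GSDME, the gasdermin cut by caspase 3, showed the largest change of the 10 genes. Treated cells labelled CASP1 had 6.70, 5.71, 5.79 and 5.85, against 3.35, 3.09, 3.03 and 3.26 in the same cells untreated. Treated control cells had 7.37, 8.26, 8.16 and 8.30, against 3.69, 4.41, 4.59 and 4.37 in untreated control cells. No array of any group overlaps another group, and the order from low to high is untreated cells labelled CASP1, untreated control cells, treated cells labelled CASP1 and treated control cells. The rise was 2.83 in cells labelled CASP1 (SE 0.23, 7.1-fold, adjusted p = 2.37e-07) and 3.75 in control cells (SE 0.23, 13.5-fold, adjusted p = 3.38e-09). The signals of untreated cells labelled CASP1 were below the 3.53 median of the tissue-restricted genes, which limits how closely that fold, the untreated line difference and the interaction can be read. Cells labelled CASP1 were lower by -2.01 with prednisolone (adjusted p = 1.39e-05) and by -1.08 without it (adjusted p = 0.00381). Leaving out all replicate 1 arrays gave -2.46 and -1.33, and within replicate 1 alone they were -0.67 and -0.34. GSDME had a single probe set. All 4 calls were kept under every alternative tried.

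GSDME and IL1B moved most with prednisolone, in opposite directions, so their promoters are shown for reference. RefSeq sequences on GRCh38.p14 were available for 6 of the 10 genes, each 250 bases before to 50 after an annotated transcript start, and are written on the gene's strand. Capitals mark a GC box (GGGCGG or its reverse complement CCGCCC) or an octamer (ATTTGCAT, both strands searched).
GSDME, chr7:24757415-24757714, minus strand: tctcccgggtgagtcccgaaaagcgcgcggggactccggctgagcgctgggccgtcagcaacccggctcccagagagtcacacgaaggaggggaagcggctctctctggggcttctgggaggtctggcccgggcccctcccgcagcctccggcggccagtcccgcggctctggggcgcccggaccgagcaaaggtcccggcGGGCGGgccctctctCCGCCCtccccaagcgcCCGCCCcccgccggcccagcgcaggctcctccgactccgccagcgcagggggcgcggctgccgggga
IL1B, chr2:112836730-112837029, minus strand: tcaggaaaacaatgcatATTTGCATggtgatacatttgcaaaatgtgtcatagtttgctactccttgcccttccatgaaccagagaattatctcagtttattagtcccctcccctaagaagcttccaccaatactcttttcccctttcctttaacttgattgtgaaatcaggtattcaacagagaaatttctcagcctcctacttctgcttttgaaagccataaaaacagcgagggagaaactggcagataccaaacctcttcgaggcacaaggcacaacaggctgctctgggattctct

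The windows differ in composition. The GSDME window is 77.0% G or C and holds 3 GC boxes, starting 49, 34 and 17 bases before the transcript start, and 45.0% of all 35116 promoters in the table hold at least 1. The IL1B window is 42.3% G or C and holds 1 octamer, starting 233 bases before the start, where 1.77% of promoters hold it. Neither window contains AGAACA, the core hexamer of glucocorticoid response elements, on either strand, and 14.8% of promoters hold it. These are matches of letters in short windows and not measurements of binding.

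The interaction took the prednisolone response of cells labelled CASP1 minus that of control cells. In limma 0 of the 10 genes were called, where 0.888% of all genes were, and 3 had an unadjusted p under 0.05. These were CARD16 at 0.91 (SE 0.25, adjusted p = 0.123), IL1B at 0.88 (SE 0.30, adjusted p = 0.24) and GSDME at -0.93 (SE 0.33, adjusted p = 0.27). The estimated change was smaller in cells labelled CASP1 for all 3 genes, with the limit of low signal given above for GSDME. In treated and untreated cells labelled CASP1, CARD16 averaged 4.40 and 4.53 and IL1B averaged 4.21 and 5.30. These lie within the 2.51 to 7.01 range of the tissue-restricted genes, above their median of 3.53. Whether low signal limited the falls of CARD16 and IL1B was not tested. Without the 4 arrays of replicate 1 all 3 passed, at 1.06 (adjusted p = 0.0291), 0.94 (adjusted p = 0.00558) and -1.12 (adjusted p = 0.000293), where 4.01% of all genes were called. The values within replicate 1, with 1 array in each group and no test, were 0.45, 0.71 and -0.33. With a term for replicate 1 in the fit IL1B alone passed (adjusted p = 0.0355), and without untreated control replicate 1 alone CARD16 did (1.09, adjusted p = 0.0191). The other 7 genes did not pass in any of these fits.

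**Figure D4:**
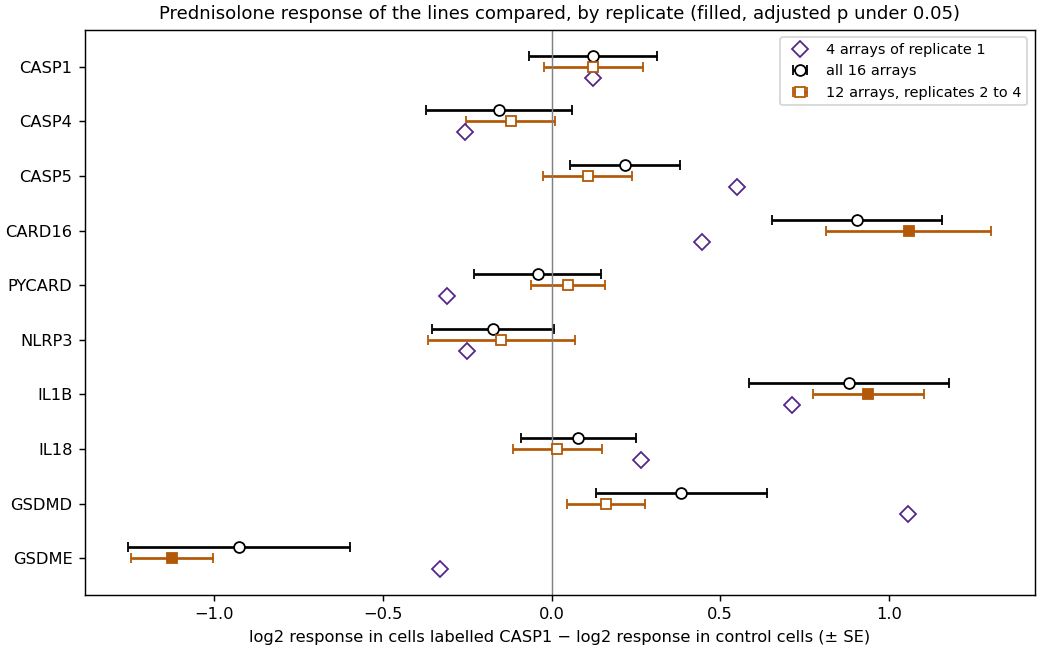
The prednisolone response of cells labelled CASP1 minus that of control cells, on the log2 scale with its SE, for all 16 arrays (circles) and for the 12 arrays of replicates 2 to 4 (squares). Diamonds are the 4 arrays of replicate 1, which give no SE. CARD16, IL1B and GSDME are filled, with adjusted p under 0.05, only among the squares.

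The counts of 5 further lists of the pathway are read beside the shares of all genes called, which were 6.34% and 14.2% with prednisolone in cells labelled CASP1 and control cells, and 16.4% and 14.1% between the treated and the untreated lines. Of 18 measured inflammasome sensors and regulators, 1 was called with prednisolone in each line, and 1 and 3 between the treated and the untreated lines. IFI16, a DNA sensor, fell with prednisolone, at -0.33 in cells labelled CASP1 (adjusted p = 0.0286) and -0.39 in control cells (adjusted p = 0.00377). The call in cells labelled CASP1 was kept in 16 of 27 alternatives. It ended without treated replicate 1 or 3 or untreated replicate 2, 3 or 4 of that line. A second quantile normalization (-0.28, adjusted p = 0.0542), centring on the 75th percentile and the mean of the IFI16 probe sets also ended it. So did fitting only the groups compared, with or without the replicate block. With the probe set of largest SD both IFI16 calls ended, at -0.28 and -0.21. In untreated cells labelled CASP1 NLRP1 and MEFV were higher and BRCC3, which removes ubiquitin from NLRP3, was lower, and in treated cells BRCC3 was the call. BRCC3 differed by -0.45 in treated and -0.50 in untreated cells, with adjusted p of 0.00405 and 0.00224, and neither passed as the mean of its probe sets (-0.31 and -0.22), nor the treated one with the replicate block within the groups compared (adjusted p = 0.0769). NLRP1, a sensor, was at 0.74 (adjusted p = 0.0218) and MEFV, which encodes the sensor pyrin, at 0.45 (adjusted p = 0.0196). The NLRP1 call ended without untreated replicate 3 or 4 of the cells labelled CASP1 or untreated control replicate 1, and the MEFV call without untreated replicate 1 or 3 of the cells labelled CASP1 or untreated control replicate 2, with values from 0.62 to 0.95 and from 0.20 to 0.51 over all alternatives. As the mean of its probe sets neither passed, NLRP1 at 0.82 (adjusted p = 0.063) and MEFV at 0.20 (adjusted p = 0.139), and NLRP1 did not with its probe set of largest SD (0.95, adjusted p = 0.0939).

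Of 13 interleukin 1 family ligands and receptors, 0 were called for prednisolone by limma in either line, against 6.34% and 14.2% of all genes, and 1 in each had an unadjusted p under 0.05. For a list this short, 0 is near those shares. IL18RAP was the only line difference, at 0.42 in untreated cells (adjusted p = 0.0401). It averaged 3.88 in untreated cells labelled CASP1 and 3.47 in untreated control cells, the latter below the 3.53 median of the tissue-restricted genes. The IL18RAP call ended without any 1 of 7 arrays and when its probe sets were averaged (0.10, adjusted p = 0.552). Of 13 measured genes of Toll-like receptor and interleukin 1 receptor signalling, 0 were called for prednisolone, again against 6.34% and 14.2% of all genes, with 4 and 2 at an unadjusted p under 0.05 in cells labelled CASP1 and control cells. Between the treated lines 2 of the 13 were called, against 16.4% of all genes. There TRAF6, a ubiquitin ligase that relays the signal, was lower by -0.70 in cells labelled CASP1 (adjusted p = 0.00643), and TLR2, a receptor for bacterial lipoproteins, was higher by 0.37 (adjusted p = 0.011). TLR2 averaged 3.52 in treated cells labelled CASP1 and 3.15 in treated control cells. Both lie below the 3.53 median of the tissue-restricted genes, which limits how closely the difference can be read. TLR2 did not pass when its probe sets were averaged (0.10, adjusted p = 0.35) or with the replicate block within the groups compared (adjusted p = 0.0613).

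Among 9 measured gasdermins and gasdermin-cleaving proteases, GSDMB and GZMA were called. With prednisolone the count was 0 in cells labelled CASP1 and 1 in control cells, against 6.34% and 14.2% of all genes. In cells labelled CASP1 0 also had an unadjusted p under 0.05 in limma. The count was 2 between the treated and 1 between the untreated lines, against 16.4% and 14.1%. For a list this short these counts are near those shares. GSDMB, a gasdermin cut by granzyme A, averaged 7.56 ± 0.27 in treated cells labelled CASP1, against 6.71 ± 0.14 in treated control cells (SD, n = 4 each). Without treatment it averaged 7.53 ± 0.12 in cells labelled CASP1 and 6.76 ± 0.078 in control cells. It was higher in cells labelled CASP1 by 0.85 and 0.77 (adjusted p = 6.41e-05 and 0.000179). GZMA, which encodes granzyme A, averaged 4.53 ± 0.21 in treated and 4.43 ± 0.21 in untreated cells labelled CASP1, against 6.36 ± 0.58 in treated and 4.99 ± 0.15 in untreated control cells. It rose by 1.38 with prednisolone in control cells (adjusted p = 0.000111), and the change in cells labelled CASP1 was 0.10 (adjusted p = 0.881). In treated cells it was lower in cells labelled CASP1 by -1.83 (adjusted p = 1.09e-05).

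Among 9 measured transcription factors that act on inflammasome genes, IRF8, a factor of B and myeloid cells, changed most. With prednisolone 2 of the 9 were called in cells labelled CASP1 and 1 in control cells, against 6.34% and 14.2% of all genes, and 2 between the treated and 3 between the untreated lines, against 16.4% and 14.1%. It averaged 6.54 ± 0.17 in treated and 4.66 ± 0.22 in untreated cells labelled CASP1, against 6.19 ± 0.26 in treated and 5.45 ± 0.17 in untreated control cells. The rise with prednisolone was 1.88 in cells labelled CASP1 (adjusted p = 6.44e-08) and 0.74 in control cells (adjusted p = 0.000824). NFKB1, which encodes the p50 subunit of NF-kappaB, was lower in cells labelled CASP1 by -0.55 in treated (adjusted p = 6.62e-05) and -0.36 in untreated cells (adjusted p = 0.00344). NFKB2, which encodes the p52 subunit, was higher by 0.44 in treated cells (adjusted p = 0.00551), and did not pass with the replicate block within the groups compared (adjusted p = 0.0523). REL, another subunit, was higher by 0.55 in untreated cells (adjusted p = 0.0209), but did not pass without untreated replicate 1 or 2 of the cells labelled CASP1 or untreated control replicate 2 or 4. IRF1, an interferon-regulated factor, changed by -0.60 with prednisolone in cells labelled CASP1 (adjusted p = 0.0425). The IRF1 call was kept in 15 of 27 alternatives and ended without any 1 of 10 arrays. It also ended with the IRF1 probe set of largest SD and with only the groups compared in the fit.

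**Figure D5:**
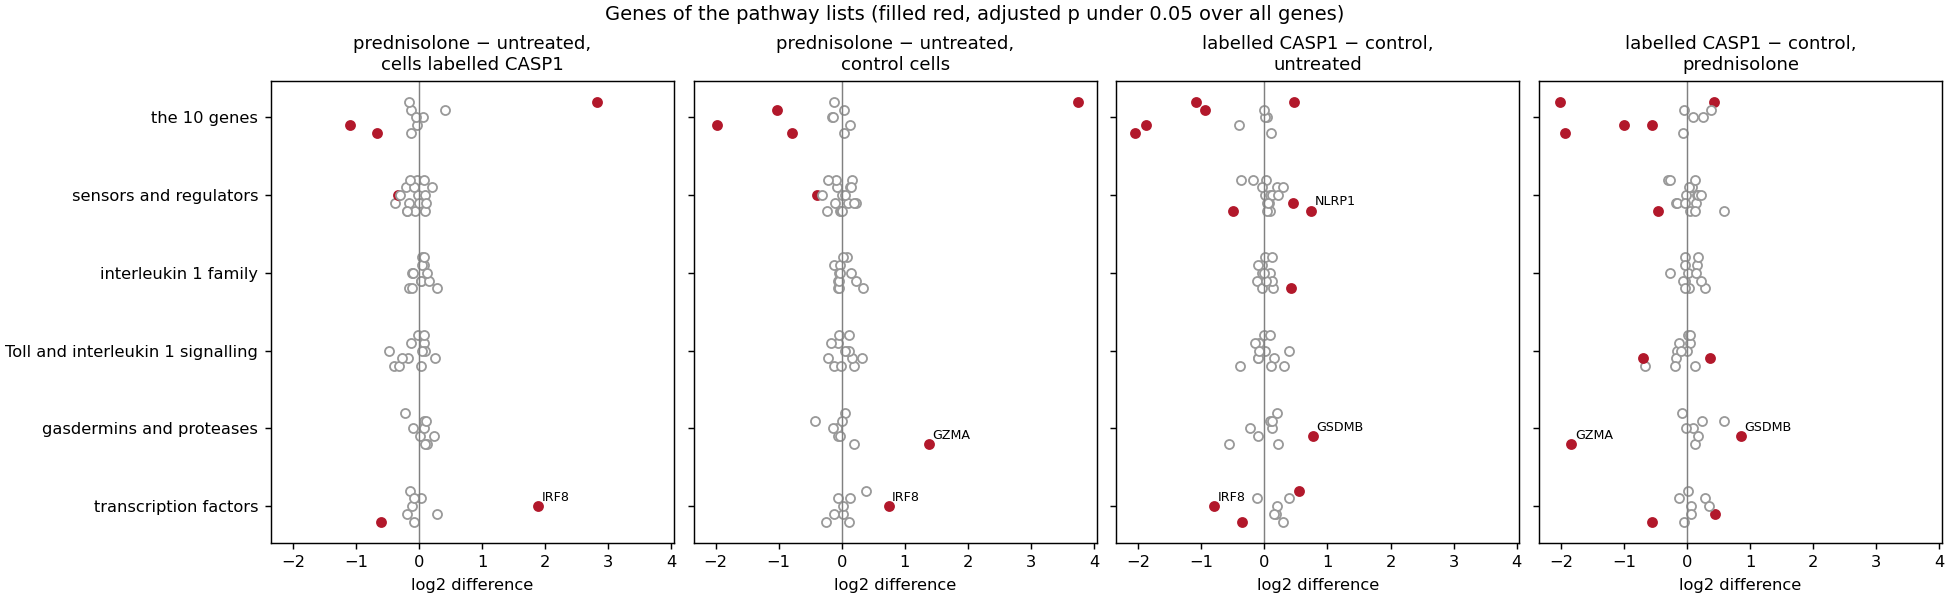
Log2 differences of the measured genes of the 10-gene set and of 5 pathway lists, 1 point per gene, in the 4 comparisons of groups. Filled points had adjusted p under 0.05 over all genes. Most points of the 5 lists lie near 0 and are open, and the filled ones include IRF8 with prednisolone (1.88 and 0.74) and GSDMB between the lines (0.85 and 0.77).

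Markers of other cells moved in places beside these values. Of the 12 monocyte and macrophage markers LYZ, lysozyme, fell with prednisolone by -1.94 in cells labelled CASP1 and -0.95 in control cells, as IL1B did, and was higher by 1.34 in untreated cells labelled CASP1, where IL1B was lower. As the mean of its probe sets LYZ changed by -1.22 and -0.60 with prednisolone. ITGAM was higher by 0.37 in treated cells labelled CASP1, and the other 10 markers were called in no comparison of groups. The mean of the 12 markers on an array, LYZ included, ran from 3.26 to 3.33 in treated and 3.38 to 3.53 in untreated cells labelled CASP1. In control cells it ran from 3.15 to 3.26 in treated and 3.28 to 3.43 in untreated cells. The median change of the 12 with prednisolone was -0.011 in cells labelled CASP1 and -0.036 in control cells, beside 0.018 and -0.015 over all genes. CD14 was not called in any comparison. None of the 8 T and NK cell markers was called by limma, and none had an unadjusted p under 0.05. The part of these markers in the results was not tested.

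The 4 genes most like CASP1 over the 16 arrays by Pearson correlation were CYRIB (r = 0.977), TMTC4 (0.973), ACACA (0.97) and EFNB2 (0.969). Those most like IL1B were EFEMP1 (0.979), FAM117B (0.975), MEF2C (0.967) and POLR3G (0.967). These values describe arrays that share 4 groups and carry no test. EFEMP1, for instance, averaged 4.20 and 4.72 in treated and untreated cells labelled CASP1 and 4.77 and 6.07 in treated and untreated control cells.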

How the data were processed

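Total RNA of 16 Nalm6 samples was measured on Affymetrix PrimeView arrays. The values are log2 signals deposited by the authors, and RMA, which corrects background, quantile normalizes and summarises probes, is named in the submitters' processing notes. The deposited log2 values ran from 1.69 to 14.28, with array medians of 4.85 to 4.93, and were not normalized again. RMA shrinks differences of dim probe sets, and the number of arrays limits the precision.

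Of 49395 probe sets, 44988 name 1 gene in GEO's platform annotation, 1832 several, 2473 none and 102 are controls. The brightest probe set over 16 arrays stood for each of 18132 genes. All 16 arrays were fitted in limma 3.58.1 (R 4.3.3) with 4 group means, 12 residual degrees of freedom, two-sided tests and Benjamini-Hochberg adjustment over all genes in each of 5 comparisons. The genes, lists and replicate 1 alternatives were chosen with earlier results of these data known. Named genes are the 10 members, up to 4 called genes per pathway list by size of difference, and the 4 most like CASP1 and IL1B. Markers were named after their values were seen where they were called. Some genes of the lists were not analysed here.

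Replicate numbers come from the labels. Deviations from the group means of arrays sharing a number correlated at 0.15 to 0.43 across genes between the untreated lines. The highest value was that of replicate 1, and replicates 2 to 4 had 0.15, 0.17 and 0.18. Only 4 of these 8 arrays were closest to their own number, so pairing of replicates 2 to 4 was not shown. In the other comparisons at least 1 correlation was under 0.1.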

Additional observations from a re-analysis of the deposited data

Results flagged for a closer look

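In treated cells labelled CASP1, GSDMD on replicate 1 was 7.81, far above the 6.70 to 6.84 of the other 3 arrays. GSDME on the same array was 6.70, above 5.71 to 5.85 on the others, and in treated control cells GSDME on replicate 1 was 7.37, below 8.16 to 8.30. These are 3 of 40 sets of 4 arrays tested, all on replicate 1, where chance marks about 1 in 20.

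The prednisolone response differed between the lines for 3 genes outside the 10. That of cells labelled CASP1 minus that of control cells was -1.28 for GZMA (adjusted p = 0.0469), 1.14 for IRF8 (adjusted p = 0.00713) and -0.99 for LYZ (adjusted p = 0.0392). The IRF8 call was kept in 25 of 25 alternatives, with values from 0.69 to 1.26. The GZMA call was kept in 8 of 25, and ended without any 1 of 15 arrays, all but treated control replicate 1. The LYZ call was kept in 12 of 25, and ended without any 1 of 11 arrays.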

How the results depend on the processing

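Of 17 line and treatment calls on the 10 genes, PYCARD in both line comparisons and CASP4 in treated cells were lost under some alternative. Their values are given above, and the other calls were kept in 27 of 27. These 27 did not include probe sets taken alone. Taken alone, 5 of the 9 CASP1 probe sets did not pass for prednisolone in cells labelled CASP1. Among these was a brighter one, with means of 5.14 in treated and 5.32 in untreated cells of that line (-0.17, adjusted p = 0.669 in limma). The second CARD16 probe set passed for neither CARD16 call. With the probe set of largest SD CASP4 in treated cells was -0.52 (adjusted p = 0.0627). Of the CASP1 probe sets taken alone, a dim one gave 0.15 for prednisolone in cells labelled CASP1 and 0.065 between the treated lines, both not called and opposite in sign to the brightest. The interaction count of 0 members became 3 without the 4 arrays of replicate 1 and 1 with a term for replicate 1, and ran from 0 to 1 with single arrays left out. The treated line count of 5 became 3 at adjusted p under 0.01 and ran from 3 to 5 with single arrays left out, with 3 without treated replicate 1 of the cells labelled CASP1 or treated control replicate 2. With the replicate block 6 members were called between the untreated lines, where CASP4 was added, and no other member call changed. A block within the groups compared, chosen after seeing the data, also gave 6. With the full block, all-gene interaction calls were 289 against 161, and with the block within groups treated line calls were 1946 against 2974. Between the untreated lines 4 of 8 arrays were closest to their own number. With prednisolone the count was 6 of 8 in cells labelled CASP1 and 4 of 8 in control cells, and between the treated lines 2 of 8. Genes called for prednisolone in cells labelled CASP1 were 1150, and 688 with only those groups fitted, 2161 without replicate 1, 1793 with its term and 572 at adjusted p under 0.01. Without replicate 1, calls were 3969 for prednisolone in control cells, 3876 between untreated lines and 727 for the interaction, which had 392 with the term. At adjusted p under 0.01 they were 1669, 1445 and 53, with 1637 between treated lines, and interaction calls ran from 96 to 268 with single arrays left out.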

Other observations

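A probe set annotated to both CASP1 and CARD16, left out of the comparisons because it names more than 1 gene, was 7.08 ± 0.21 and 7.40 ± 0.16 in treated and untreated cells labelled CASP1, and 7.94 ± 0.21 and 8.72 ± 0.15 in treated and untreated control cells (SD, n = 4 each). It was lower in cells labelled CASP1 by -0.86 in treated and -1.32 in untreated cells (adjusted p = 0.000181 and 3.47e-06 over all probe sets). It fell by -0.78 with prednisolone in control cells (adjusted p = 0.000306), and changed by -0.32 in cells labelled CASP1 (adjusted p = 0.191).

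Some B-cell precursor markers were called lower. Of 12 measured, 3 were called lower with prednisolone in each line, and the other 9 were not called. Among all genes 3.35% were called lower in cells labelled CASP1 and 8.43% in control cells. The median change of the 12 was -0.23 in cells labelled CASP1 and -0.11 in control cells, beside 0.018 and -0.015 over all genes. BLNK, an adaptor of B-cell receptor signalling, fell in both, by -0.28 in cells labelled CASP1 (adjusted p = 0.0295) and -0.36 in control cells (adjusted p = 0.00255). Between the lines 3 were called lower in treated and 4 in untreated cells labelled CASP1, against 8.52% and 8.2% of all genes. The remaining 9 and 8 were not called. The median line difference of the 12 was -0.26 in treated and 0.0094 in untreated cells, beside 0.045 and 0.0067 over all genes. VPREB1, a surrogate light chain gene, differed by -0.31 in treated and -0.35 in untreated cells (adjusted p = 0.00448 and 0.00226).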
